A study of Arabidopsis thaliana with 8 samples.

Results

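Wild-type Arabidopsis thaliana seeds that had taken up water in the cold were compared with seeds of the same genotype that had taken it up in the warm. The comparison used the 2 arrays of Col-0 seeds held for 24 h at 4 °C and the 2 arrays of Col-0 seeds held for 24 h at 22 °C, 4 of the 8 arrays of the series, chosen by their labels alone. The other 4 arrays hold 35S-GSH1 seeds at the same temperatures and times, a line in the Col-0 background that overexpresses GSH1, the enzyme of the first committed step of glutathione synthesis, from the constitutive viral 35S promoter. The labels call the 4 °C treatment vernalization, and they give no seed age, storage time, light condition or number of seeds per sample. The Col-0 arrays are called warm replicates 1 and 2 (22 °C) and cold replicates 1 and 2 (4 °C) below. No label says whether replicates were separate seed lots, so each p-value rests on a spread between arrays that may be only technical.

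Imbibition is the uptake of water by a dry seed, which restarts respiration and translation and begins the replacement of stored seed messages by messages of germination. Moist chilling, called stratification, releases dormancy in many Arabidopsis seeds, while the cold itself slows growth and metabolism. Inside imbibed seeds oxygen can become scarce, and plant cells respond to low oxygen with a known set of genes that includes the enzymes of fermentation.

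Levels were measured on single-colour Affymetrix arrays as the intensity of each probe set, a group of probes that reports 1 transcript, and all values below are intensities after quantile normalization. Differences are of log2(intensity + 1), 4 °C minus 22 °C, with a standard error (SE) and n = 2 arrays per group. A gene was called where the limma p-value, adjusted by the Benjamini-Hochberg method over the 13648 probe sets tested, was under 0.05. No array came from dry seeds or from another time, so a rise or fall is a difference between temperatures at 24 h. How far germination had advanced at each temperature was not measured, and such an advance and a temperature response cannot be told apart. In whole seeds, fewer cells of a type and less RNA per cell cannot be told apart either.

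The arrays had median deposited intensities of 12.3 to 16.2. Across the probe sets tested, the 2 pairs of Col-0 replicates correlated with Pearson's r of 0.962 to 0.969, and the 4 pairs of Col-0 arrays of different temperature with 0.940 to 0.956. None of the 12 embryo markers looked up had a probe set of its own, so the tissue was checked on other seed genes. The 9 tested seed storage and oil body genes ran from an intensity of 32.3 to 10080, and the 13 tested late embryogenesis abundant genes from 566 to 10668, in all 8 arrays. Rubisco activase RCA, the tested leaf marker, lay between 19.6 and 36.3.

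In Col-0 seeds, 953 of the 13648 probe sets passed the test, which is 6.98% of them. At 4 °C 502 were higher (3.68%) and 451 were lower (3.3%). On the deposited scale the split was 642 higher and 351 lower, or 64.7% higher against 52.7% after quantile normalization, and the median of all probe sets was then shifted by 0.09. In all 953 called probe sets both arrays of one temperature lay beyond both of the other, a separation seen in 49.8% of all probe sets tested and in 48.8% of the genes with a probe set of their own. Most differences were modest: the median fold was 1.91 among the higher and 1.96 among the lower calls. At least 2-fold differences were called in 196 higher (1.44%) and 212 lower probe sets (1.55%), and at least 4-fold ones in 24 higher (0.176%) and 44 lower ones (0.322%).

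Calls were more frequent and smaller among bright probe sets. In the dimmest of 4 equal bins of the probe sets tested 0.909% were called higher and 0.938% lower, with a median absolute log2 difference of 1.95. In the brightest bin 6.60% were called higher and 6.39% lower, with a median of 0.81. Of 7527 genes with a probe set of their own, 462 were called (6.14%), 241 higher (3.2%) and 221 lower (2.94%), and the median log2 difference over all of them was -0.00073. The counts of calls rest partly on single arrays: 430 probe sets were called when warm replicate 1 was left out, 438 without cold replicate 1 and 514 without cold replicate 2.

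**Figure D1:**
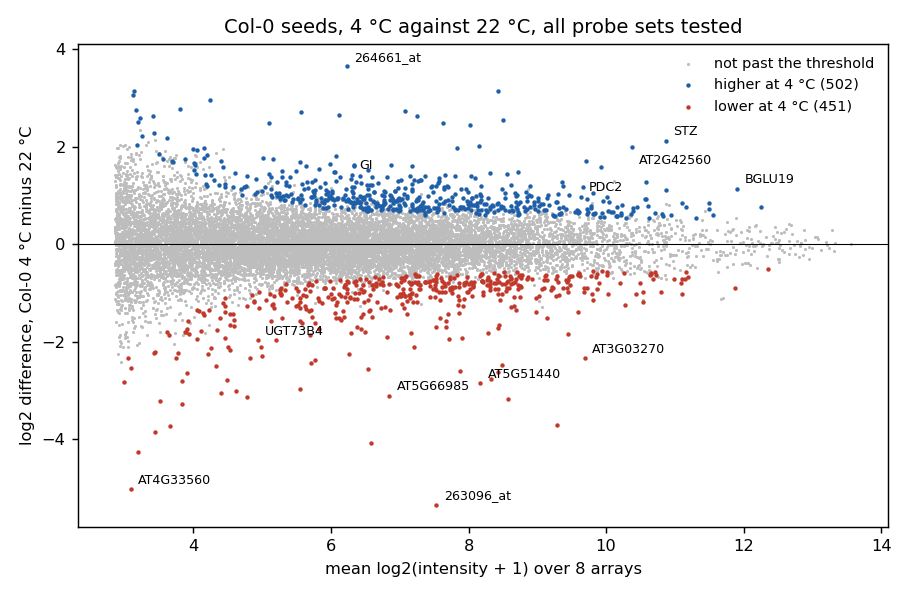
Log2 difference between Col-0 seeds at 4 °C and 22 °C (vertical axis) against the mean log2(intensity + 1) over the 8 arrays (horizontal axis) for the 13648 probe sets tested. Blue points are the 502 higher and red points the 451 lower calls, and the called differences narrow from the dim to the bright end.

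Genes that rise when Arabidopsis seedlings are short of oxygen were read as a list. Of 52 such genes listed, 26 had a probe set of their own and 24 were tested. At 4 °C 13 of the 24 were lower, 2 were higher and 9 did not pass, against 2.94% lower and 3.2% higher over all genes tested. The median log2 difference of the 24 was -0.95, against -0.00073 over all genes. The list was drawn up with earlier results of these arrays known.

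AT4G33560 had intensities of 47.4 and 46.2 in the 22 °C arrays and of 0.413 and 0.512 in the 4 °C arrays. Both 4 °C arrays lay far under both 22 °C arrays and under the level of 6.26 below which probe sets were left out. Its log2 difference was -5.03 (SE 0.65, limma adjusted p = 0.000519), a size that depends on values at the bottom of the scale. AT5G10040 gave 23.9 and 50.2 at 22 °C against 0.337 and 3.55 at 4 °C. Here too the groups were well apart and the cold arrays under the filter level, with a log2 difference of -3.86 (SE 0.64, limma adjusted p = 0.00279).

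AT5G66985 had intensities of 242 and 431 in warm seeds and of 22.7 and 58.6 in cold seeds. The log2 difference was -3.11 (SE 0.36, limma adjusted p = 0.000221), or 8.63-fold, with the 4 °C arrays well within the measured range. The brighter AT3G03270 gave 1203 and 2305 at 22 °C and 357 and 300.0 at 4 °C. Its lower warm array stood more than 3 times above its higher cold array, and the log2 difference was -2.34 (SE 0.24, limma adjusted p = 8.43e-05). AT2G17850 gave 96.1 and 98.1 against 21.8 and 30.5 (log2 difference -1.87, limma adjusted p = 0.000228). AT1G33055 had 1069 and 1440 against 470 and 481 (log2 difference -1.38, limma adjusted p = 0.00029), and AT4G39675 had 1941 and 1891 against 657 and 977 (log2 difference -1.26, limma adjusted p = 0.00206). On the log2 scale the warm replicates of each lay nearer to each other than to the cold arrays. They were closest in AT2G17850 and AT4G39675 and furthest apart in AT5G66985 and AT3G03270.

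HRA1 (AT3G10040) is a transcription factor named for damping the hypoxia response in Arabidopsis, and was named here after its values were seen. It gave 91.8 and 103 in warm seeds and 35.3 and 50.6 in cold seeds, so the groups did not overlap. The log2 difference was -1.19 (SE 0.23, limma adjusted p = 0.00706), and without cold replicate 1 the limma adjusted p was 0.0726. The other lower members were AT3G27220, AT5G44730, AT4G27450, AT1G26270 and AT4G24110, with log2 differences from -1.13 to -0.78. Of the 13 lower members, 8 passed without any single array. Without cold replicate 1, 8 of the 13 passed in all.

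The fermentation enzyme among the tested members rose, and listed genes without a tested probe set were not analysed here. PDC2, a pyruvate decarboxylase, which makes acetaldehyde in ethanol fermentation, gave 571 and 584 in warm seeds and 1030.3 and 1256 in cold seeds. Warm replicates lay nearly together and both cold arrays stood clearly above them, a log2 difference of 0.98 (1.97-fold, SE 0.16, limma adjusted p = 0.00257), which passed without any single array. AT4G10270 was the other higher member, with 362 and 613 at 22 °C and 718 and 1043 at 4 °C. Its groups were apart by less than the spread within either, with a log2 difference of 0.88 (SE 0.23, limma adjusted p = 0.0343), and the call ended without warm replicate 1 (limma adjusted p = 0.281). Among the 9 that did not pass, AT3G10020 was bright at both temperatures. It gave 5431 and 5171 against 5785 and 4965, with overlapping groups and a log2 difference of 0.016 (SE 0.13, limma adjusted p = 0.964). The calmodulin-like gene CML38 gave 81.5 and 148 against 46.4 and 96.7, again overlapping (log2 difference -0.70, limma adjusted p = 0.211).

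**Figure D2:**
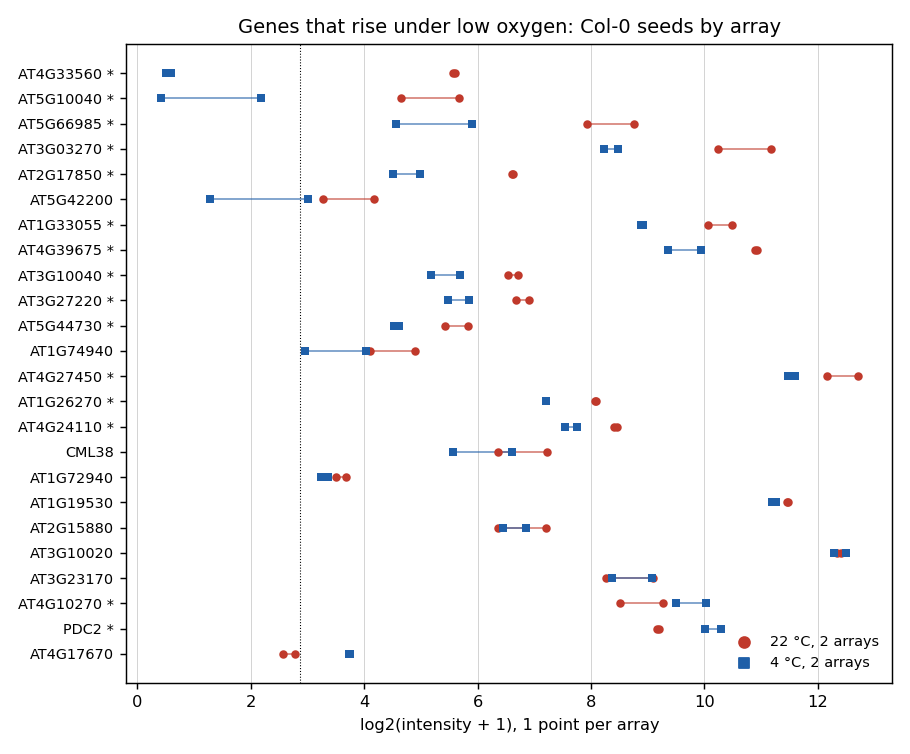
Log2(intensity + 1) in each Col-0 array (horizontal axis) for the 24 tested genes of the low oxygen list, ordered by their log2 difference from the most negative at the top. Red circles are the 2 arrays at 22 °C, blue squares the 2 at 4 °C, asterisks mark the 15 that passed and the dotted line is the filter level of 2.86; the 13 lower members have both squares left of both circles.

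Among 8 tested genes of fermentation and glycolysis, PDC2 and AT4G17260 were higher and AT5G56350 lower, and 5 did not pass. Over all genes tested 3.2% were higher and 2.94% lower. AT5G56350 had 205 and 150.3 in warm seeds and 77.4 and 61.1 in cold seeds, with no overlap (log2 difference -1.34, SE 0.22, limma adjusted p = 0.00257). AT4G17260 had 16.8 and 17.9 against 47.5 and 43.7 (log2 difference 1.34, limma adjusted p = 0.0158), a call that ended without any 1 of the 4 Col-0 arrays (limma adjusted p up to 0.0953, without cold replicate 1). The cytosolic glyceraldehyde-3-phosphate dehydrogenase GAPC2 gave 2035 and 1487 against 1715 and 1394, and the groups overlapped (log2 difference -0.17, limma adjusted p = 0.619). The list's median was -0.15.

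Fast-responding stress and wound genes lay mostly on the higher side in cold seeds. Of 11 tested, 5 were higher and none lower, against 3.2% higher and 2.94% lower over all genes tested, and the median log2 difference was 0.97. AT1G18740 gave 66.7 and 44.3 at 22 °C and 346 and 342 at 4 °C. The cold replicates were nearly equal and far above the warm ones, a log2 difference of 2.64 (6.23-fold, SE 0.20, limma adjusted p = 4.09e-06). AT3G19680 gave 79.8 and 103 against 399 and 659, with a wide gap between the groups and a log2 difference of 2.49 (SE 0.24, limma adjusted p = 4.39e-05).

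STZ, also named ZAT10, is a zinc-finger transcriptional repressor that responds to salt, cold and other stresses. Its intensities were 796 and 1253 in warm seeds and 3556 and 5304 in cold seeds. The lower cold array was well above the higher warm array, and the log2 difference was 2.12 (4.35-fold, 95% interval 1.62 to 2.62, limma adjusted p = 0.000156). These 3 genes passed without any single array. AT4G29780 (0.73) and AT5G45630 (0.97) also rose, with limma adjusted p-values of 0.0226 and 0.0231. The call of AT4G29780 ended without any 1 of the 4 Col-0 arrays, and that of AT5G45630 ended without any 1 of 3 of them. Without warm replicate 1, or without cold replicate 1, the list had 3 higher members. The transcription factor gene WRKY6 gave 42.6 and 48.3 against 74.5 and 49.2, apart by only a small margin (log2 difference 0.41, limma adjusted p = 0.328).

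Few cold-regulated genes could be tested. Of 37 listed, 8 had a probe set of their own and 5 were tested: STZ rose and 4 did not pass, with a median of 0.28 (-0.15 without cold replicate 2). Over all genes tested 3.2% were higher and 2.94% lower. COR27, a cold-induced gene that also acts in the circadian clock, had 164 and 219 in warm seeds and 265 and 324 in cold seeds. Its groups did not overlap, with a log2 difference of 0.63 (SE 0.19, limma adjusted p = 0.0595). The dehydrin gene LTI30 was bright at both temperatures, with 4995 and 6497 against 5120 and 7241, and the groups overlapped (log2 difference 0.096, 95% interval -0.29 to 0.49). The lipocalin gene TIL gave 4740 and 5807 against 3920 and 3874, lower in both cold arrays (log2 difference -0.43, limma adjusted p = 0.0760). Classical cold-response genes without a tested probe set were not analysed here.

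Of 3 tested genes of the clock and flowering list, GI was higher and 2 did not pass. Over all genes tested 3.2% were higher and 2.94% lower. Those 2 were COR27, given above, and AT4G33980, with 598 and 857 against 627 and 1213 and overlapping groups (log2 difference 0.28). GI encodes GIGANTEA, a protein of the circadian clock and of flowering time control. GI gave 55.7 and 52.4 in warm seeds and 163 and 133 in cold seeds. Warm replicates agreed closely and both cold arrays were far above them (log2 difference 1.43, 2.69-fold, SE 0.20, limma adjusted p = 0.000882). TIC, whose product TIME FOR COFFEE also acts in the clock, is outside the list and was named after its values were seen. It gave 60.6 and 65.1 against 168 and 137, likewise with no overlap (log2 difference 1.26, SE 0.21, limma adjusted p = 0.00259). Both calls held without any single array. The labels do not give the hour of the day at sampling.

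Of the 13 tested late embryogenesis abundant genes, which encode protective proteins of drying seeds, 2 rose and none fell, against 3.2% and 2.94% over all genes tested, and 11 lay above 0, with a median of 0.20. AT2G42560, a locus of this list, gave 566 and 699 at 22 °C and 2618 and 2374 at 4 °C. Replicates were close at both temperatures and the gap was wide (log2 difference 1.98, 3.96-fold, SE 0.15, limma adjusted p = 4.09e-06). AT4G36600 gave 1313 and 1606 against 2440 and 2821 (log2 difference 0.85, limma adjusted p = 0.0095), and without warm replicate 1 its limma adjusted p was 0.0884. LEA18 lay on the other side, with 9034 in both warm arrays and 7042 and 7639 in the cold arrays (log2 difference -0.30, limma adjusted p = 0.208).

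Of the 9 tested seed storage and oil body genes, 2 rose and none fell, against the same shares over all genes, with a median of 0.37. AT3G18570 gave 716 and 882 in warm seeds against 1436 and 1465 in cold seeds, and AT2G28490 gave 1810 and 2365 against 3251 and 4275. Neither pair of groups overlapped, and the log2 differences were 0.87 and 0.85 (limma adjusted p = 0.00511 and 0.00829). Each call ended without warm replicate 1, the first with a limma adjusted p of 0.0523, and that of AT2G28490 had a limma adjusted p of 0.0859 without cold replicate 2. The storage protein gene PAP85 gave 9278 and 9591 against 9278 and 10080, with overlapping groups (log2 difference 0.036).

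The summed intensity of the tested storage and oil body genes was 24924 to 26241 in warm and 28539 to 30944 in cold arrays, and that of the late embryogenesis abundant genes was 55102 to 59216 and 64616 to 65624. The summed intensity of the 2 tested endosperm markers was 194 to 225 in warm and 114 to 193 in cold arrays. The 2 went in opposite directions, with log2 differences of -0.54 and 0.74, and neither passed. AT1G71250, the lower one, made up most of the sum, with 220 and 191 in warm and 181 and 110 in cold arrays. The part of endosperm in these results was not tested.

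BZIP53, a bZIP transcription factor that activates seed maturation genes, rose by 0.95, from 193 and 167 to 405 and 301. The groups were apart by more than their spread (SE 0.21, limma adjusted p = 0.0148), but without cold replicate 1 the limma adjusted p was 0.132. BGLU19, a beta-glucosidase, was among the brightest genes called: 2516 and 2243 in warm seeds and 5304 and 5171 in cold seeds. Replicates were tight and the log2 difference of 1.14 (SE 0.17, limma adjusted p = 0.00122) held without any single array.

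Of 13 tested heat shock genes none was higher, 4 were lower and 9 did not pass, and the median was -0.39; over all genes tested 3.2% were higher and 2.94% lower. AT5G51440, a locus of the heat shock list and of the list of genes that rise on mitochondrial dysfunction, gave 881 and 704 at 22 °C and 116 and 101 at 4 °C. The cold arrays were near each other and far under the warm ones, a log2 difference of -2.85 (7.22-fold, SE 0.18, limma adjusted p = 4.96e-07). AT3G09440 gave 1078 and 1528 against 560 and 750 (log2 difference -0.99, limma adjusted p = 0.00868). AT2G29500 and AT3G24100 fell by 0.71 and 0.79, with limma adjusted p-values of 0.0124 and 0.0477. AT5G51440 passed without any single array, while each of the other 3 was lost without at least 1: up to a limma adjusted p of 0.0867 for AT3G09440 and 0.117 for AT2G29500, both without cold replicate 1, and 0.252 for AT3G24100 without warm replicate 1.

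Outside the list, 2 chaperone partners named after their values were seen were also lower. Fes1A, a nucleotide exchange factor of cytosolic Hsp70, gave 1606 and 1364 against 1019 and 956 (log2 difference -0.58, limma adjusted p = 0.0282). ATERDJ3B, a J-domain protein of the endoplasmic reticulum, gave 41.2 and 31.1 against 15.6 and 20.1 (log2 difference -0.97, limma adjusted p = 0.0424). Their groups did not overlap, but both calls depended on single arrays (limma adjusted p up to 0.174 for Fes1A without warm replicate 1 and 0.229 for ATERDJ3B without cold replicate 1).

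Of 5 tested genes that rise in darkness or sugar shortage, AT3G48140 and AT5G19120 fell and 3 did not pass, with a median of 0.033. Over all genes tested 2.94% were lower and 3.2% higher. AT3G48140 gave 73.9 and 81.5 in warm seeds and 5.04 and 12.2 in cold seeds, and AT5G19120 gave 156 and 119 against 26.6 and 10.2. The groups were far apart in both, with log2 differences of -3.14 (SE 0.36, limma adjusted p = 0.000211) and -2.97 (SE 0.35, limma adjusted p = 0.000263). Among 8 tested genes that rise on mitochondrial dysfunction, AT5G51440 and AT2G41730 (log2 difference -1.56, limma adjusted p = 0.0276) were lower and 6 did not pass, against the same shares over all genes. Without warm replicate 1 the limma adjusted p of AT2G41730 was 0.230.

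The 12 largest calls in each direction among loci with both group means at or above the filter level brought further genes. Single arrays of some lay under that level of 6.26, so the sizes of their differences depend in part on low values. Examples are 5.11 for ZCF37 and 3.34 for AT5G43830 in cold replicate 1, and 5.7 for AT5G11070 in warm replicate 1. On the higher side the 12 included AT5G04500, with 28.8 and 59.9 in warm seeds and 279 and 284 in cold seeds (log2 difference 2.73, SE 0.26, limma adjusted p = 4.3e-05). AT5G17350 and AT5G15680 rose by 1.68 and 1.64 and, like AT5G04500, passed without any single array. The others, AT5G11070, AT4G16790, AT1G78410, AT2G14800 and AT2G44800, rose by 1.63 to 1.95, and each call ended without at least 1 Col-0 array (limma adjusted p up to 0.171, for AT5G11070 without cold replicate 1).

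On the lower side, ZCF37 gave 77.7 and 69.9 at 22 °C and 5.11 and 13.1 at 4 °C. The warm arrays agreed and the cold arrays were far below (log2 difference -3.01, SE 0.47, limma adjusted p = 0.00202). UGT73B4, a UDP-glucosyltransferase of stress responses, gave 56.3 and 65.4 against 14.8 and 14.6, with cold replicates almost equal (log2 difference -1.97, SE 0.30, limma adjusted p = 0.00157). AT3G45310 and AT1G10140 fell by 2.34 and 1.95. These 4 passed without any single array. AT3G25290, AT1G17360 and AT5G43830 fell by 2.22, 2.11 and 1.95 and each was lost without at least 1 array, with limma adjusted p-values up to 0.0953 without warm replicate 1, 0.0625 without warm replicate 2 and 0.212 without cold replicate 1.

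Some calls reached the bottom of the scale in one group. Of the 502 higher calls 16, and of the 451 lower calls 19, had a mean under the filter level at one temperature. The largest of these on the higher side were AT3G06750, AT4G28703, AT5G58300, AT3G28330 and AT2G38840, with log2 differences of 1.86 to 2.78, all of them lost without at least 1 Col-0 array (limma adjusted p up to 0.218, for AT3G28330 without warm replicate 1). On the lower side they were AT4G33560 and AT5G10040, described above, AT1G10050, AT3G15770 and AT1G59660, all 5 of which passed without any single array. AT1G10050, also named ATXYN2, gave 27.7 and 38.7 in warm seeds and 5.83 and 0.762 in cold seeds (log2 difference -3.28, SE 0.55, limma adjusted p = 0.00281). Probe sets with no gene of their own held the largest calls of all. The probe set 263096_at gave 1208 and 898 against 22.2 and 27.3 (log2 difference -5.35), and 264661_at gave 27.6 and 17.2 against 211 and 389 (log2 difference 3.66).

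Of the 1003 tested genes that carry a name, 51 were called, or 5.08%, against 6.14% of all genes tested. Of these 30 were higher and 21 lower, and those described here were picked after their values were seen. They were not tested as groups. COB, a membrane-anchored protein that orients cellulose deposition, gave 34.7 and 41.8 in warm seeds and 84.2 and 75.4 in cold seeds (log2 difference 1.04, SE 0.21, limma adjusted p = 0.0095). The cellulose synthase-like genes CSLC5, which makes the xyloglucan backbone, and CSLD2, which acts in tip growth, rose by 1.11 and 0.86 (limma adjusted p = 0.0221 and 0.0287). EXLA1, an expansin-like gene, was the 1 of 6 tested wall-loosening genes to pass, against 6.14% of all genes tested. It gave 291 and 386 against 607 and 625 (log2 difference 0.88, limma adjusted p = 0.0298). In none of the 4 did the groups overlap, and each call ended without at least 1 Col-0 array (limma adjusted p up to 0.0776 for COB, 0.212 for CSLC5 and 0.188 for CSLD2, all without cold replicate 1, and 0.214 for EXLA1 without warm replicate 1).

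Among the other higher ones, ARL, an ARGOS-like gene that promotes cell expansion, gave 113 and 186 against 275 and 533 (log2 difference 1.39, limma adjusted p = 0.0103). RAPTOR1, the partner of the TOR growth kinase, and TMT2, a sugar transporter of the vacuole membrane, rose by 0.87 and 0.94. TAAC, an ATP/ADP carrier of plastid membranes, gave 139 and 147 against 306 and 319, with close replicates (log2 difference 1.13, SE 0.17, limma adjusted p = 0.00188). SAMDC, which makes the aminopropyl donor of polyamine synthesis, rose by 0.68 (limma adjusted p = 0.0493). Of these 5, TAAC passed without any single array; the limma adjusted p reached 0.112 for ARL, 0.138 for RAPTOR1 and 0.0704 for TMT2 without warm replicate 1, and 0.300 for SAMDC without cold replicate 2.

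On the lower side, UBC27, a ubiquitin-conjugating enzyme, gave 408 and 484 in warm seeds and 220 and 232 in cold seeds (log2 difference -0.97, SE 0.17, limma adjusted p = 0.00343). ATG8B, a ubiquitin-like protein of autophagosomes, gave 112 and 125 against 55.8 and 51.5, with a clear gap (log2 difference -1.13, limma adjusted p = 0.00798). LSM6A, a subunit of an RNA-binding ring in mRNA decay or splicing, and DIM1A, an rRNA dimethylase, fell by 0.75 and 0.65. LBD16, a transcription factor of lateral root initiation, gave 204 and 225 against 107 and 84.1 (log2 difference -1.17, SE 0.19, limma adjusted p = 0.00231). UBC27 and LBD16 passed without any single array; ATG8B had a limma adjusted p of 0.0501 without warm replicate 2, LSM6A 0.0970 without cold replicate 1 and DIM1A 0.187 without cold replicate 2.

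Further named genes that fell are given by their own values, with no list behind them except for SAPX. The electron carrier CYTC-2, a cytochrome c, gave 1016 and 962 against 637 and 674 (log2 difference -0.59, SE 0.15, limma adjusted p = 0.0300), and the plastid malate dehydrogenase MDH gave 217 and 304 against 143 and 157 (log2 difference -0.77, limma adjusted p = 0.0272). SAPX, an organellar ascorbate peroxidase, gave 83.0 and 69.0 against 31.5 and 51.0 (log2 difference -0.90, limma adjusted p = 0.0465). It was the 1 of 4 tested glutathione and antioxidant genes to pass, against 6.14% of all genes tested, while 2 of the 4 lay above 0. The glutathione reductase GR1 had 263 and 209 against 136 and 162, also with no overlap (log2 difference -0.65, limma adjusted p = 0.0506). The 3 calls depended on single arrays, with a limma adjusted p of 0.153 for CYTC-2 and 0.337 for SAPX without cold replicate 1, and 0.168 for MDH without warm replicate 2.

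**Figure D3:**
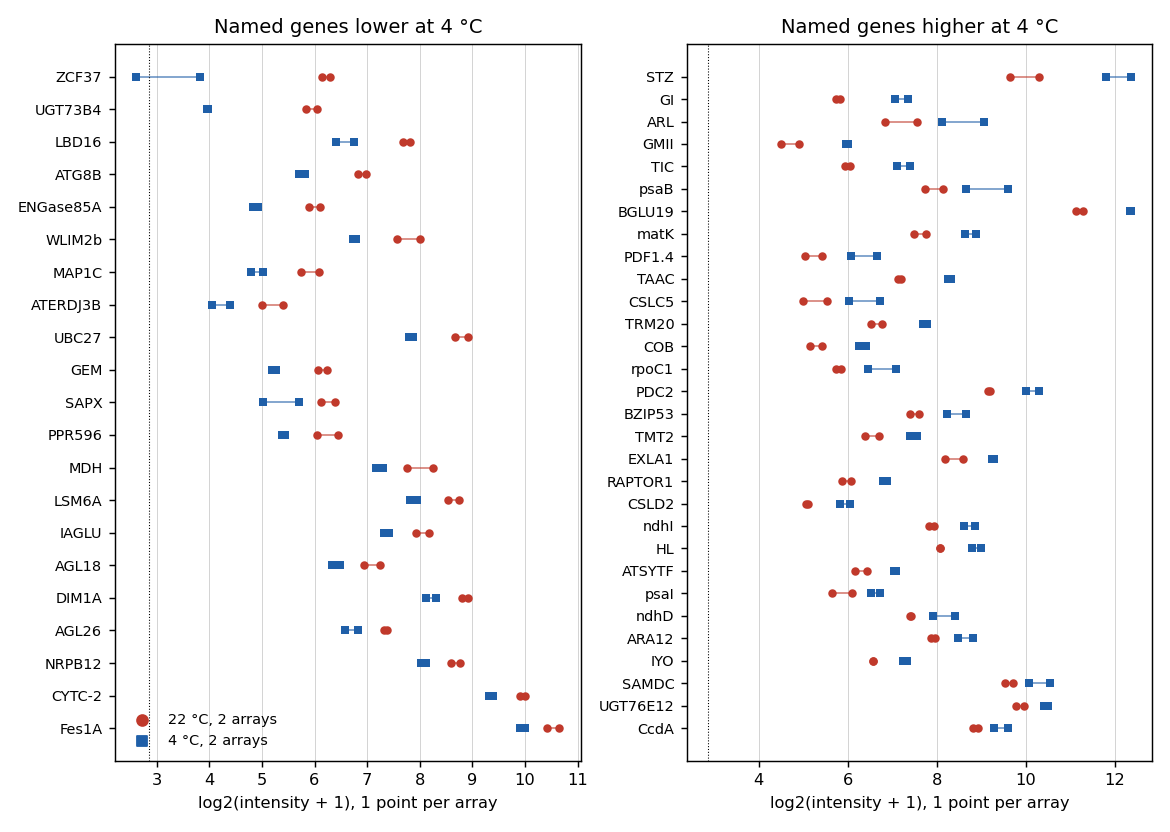
Log2(intensity + 1) in each Col-0 array (horizontal axes) for the called genes that carry a name, lower at 4 °C on the left and higher at 4 °C on the right, ordered by their log2 difference with the largest at the top. Red circles are the 2 arrays at 22 °C, blue squares the 2 at 4 °C, and the dotted line is the filter level of 2.86; ZCF37 and STZ at the top show the widest gaps.

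Organelle genomes were read separately. Of 65 tested genes of the plastid genome 6 were higher (psaB, ndhI, matK, rpoC1, ndhD and psaI) and none was lower, against 3.2% and 2.94% over all genes tested, and the median log2 difference was 0.0076. psaB, a core protein of photosystem I, gave 281 and 212 in warm seeds and 776 and 401 in cold seeds (log2 difference 1.19, SE 0.25, limma adjusted p = 0.0125), and matK, the intron maturase, gave 179 and 215 against 471 and 397 (log2 difference 1.13, limma adjusted p = 0.0226). None of the 6 calls held without cold replicate 1, and the list had 0 higher members without it. Without cold replicate 2 the list's median was 0.35 and 48 of the 65 lay above 0, against 34 with all arrays.

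None of the 11 tested genes of the mitochondrial genome passed. All 11 had log2 differences below 0, with a median of -0.58. Cytochrome oxidase subunit gene cox2 gave 4875 and 4393 at 22 °C and 3591 and 1262 at 4 °C (log2 difference -1.12, SE 0.32, limma adjusted p = 0.0540), and nad4, of respiratory complex I, gave 1259 and 843 against 830 and 253 (log2 difference -1.17, limma adjusted p = 0.174). In both, cold replicate 2 was far lower than its fellow replicate. Without that array the median of the 11 was -0.051 and 9 lay below 0.

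The remaining lists held few or no calls, where 3.2% of all genes tested were higher and 2.94% lower. Calls among the UDP-glycosyltransferase genes made up 3.125% in each direction, near these shares. Of 32 tested UDP-glycosyltransferase genes UGT73B4 fell and UGT76E12 rose (log2 difference 0.58, limma adjusted p = 0.0299, and 0.166 without warm replicate 1), and the median was 0.27. The 4 tested histone H2B genes HTB1, HTB2, HTB4 and HTB11 all lay below 0 with a median of -0.49, and none passed. Their groups did not overlap, as in 48.8% of all genes tested. HTB4, the one with the smallest p, gave 638 and 502 against 411 and 409 (log2 difference -0.47, limma adjusted p = 0.121). Among 4 gibberellin genes none passed: the receptor gene GID1A gave 320 and 322 against 409 and 390 (log2 difference 0.31, limma adjusted p = 0.271) and SLY1, the F-box protein that removes DELLA repressors, gave 63.9 and 50.6 against 75.4 and 66.2. Of 5 lipid breakdown genes none passed, and isocitrate lyase ICL, of the glyoxylate cycle, was bright and close between temperatures, with 7532 and 8181 against 7775 and 6973. SDP1, the lipase that starts oil breakdown, gave 498 and 451 against 413 and 329 (log2 difference -0.36, limma adjusted p = 0.223).

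No member passed either among 10 cytochromes P450, 5 nuclear photosynthesis genes, 4 auxin genes, 4 WRKY factors, 4 glutathione transferases, 2 endosperm markers, 1 leaf marker, 1 pollen marker, 1 NAC factor and 1 proteasome subunit. The pollen marker AT5G45880 gave 60.9 and 64.0 against 34.3 and 40.7 (log2 difference -0.73, limma adjusted p = 0.0670). Lists of abscisic acid and dormancy genes, seed coat markers, cytosolic ribosomal proteins, ethylene response factors, MYB factors and aquaporins had no tested member and were not analysed here.

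**Figure D4:**
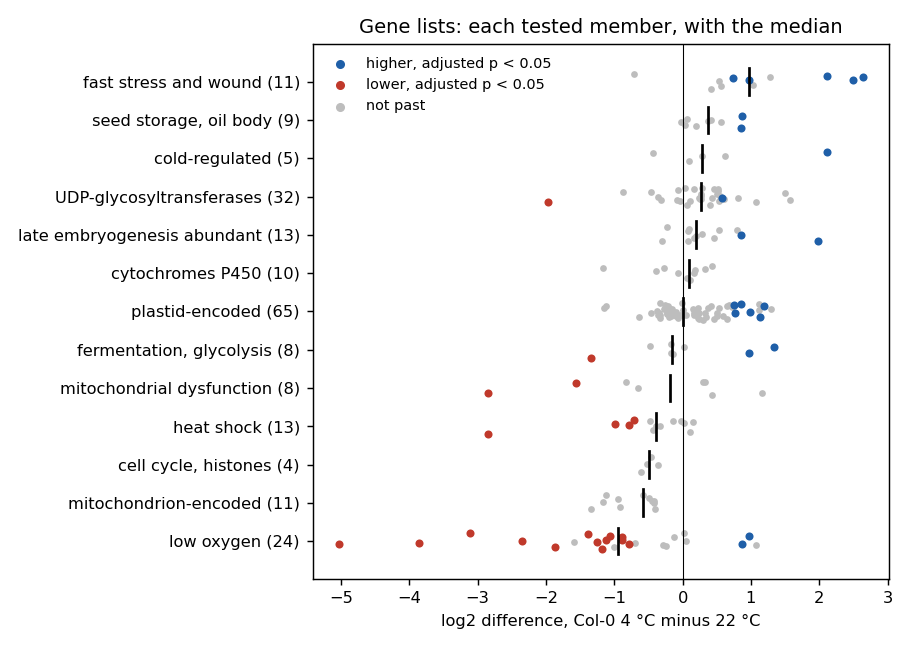
Log2 difference between Col-0 seeds at 4 °C and 22 °C (horizontal axis) of each tested member of 13 gene lists, with the number tested in brackets and the list's median as a black bar. Blue points rose, red points fell and grey points did not pass; the low oxygen list has its median at -0.95 and the fast stress and wound list at 0.97.

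The same temperature comparison in 35S-GSH1 seeds rests on other arrays, although the fit shares its estimate of the spread. Of the 502 probe sets higher in cold Col-0 seeds, 488 (97.2%) were also above 0 in 35S-GSH1, and of the 451 lower ones 447 (99.1%) were below 0. The share of equal sign over all probe sets tested was not computed, so these shares have no baseline here. The 35S-GSH1 test called 762 probe sets (5.58%; 2.8% higher and 2.78% lower), 469 of them called in Col-0 in the same direction, which is 49.2% of the Col-0 calls and 61.5% of the 35S-GSH1 calls. None was called in opposite directions. The Col-0 calls had medians of 0.93 and -0.97 in Col-0 and of 0.70 and -0.75 in 35S-GSH1. Because they were chosen by their Col-0 values, nothing is read from that gap.

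Several large or well-measured differences can be set side by side, and not all were near in size. AT5G04500 had log2 differences of 2.73 in Col-0 and 1.4996 in 35S-GSH1, AT1G18740 had 2.64 and 1.94 and AT1G33055 had -1.38 and -0.75. Unadjusted limma p-values for the difference between the genotypes were 0.00501, 0.0289 and 0.0179, and none passed after adjustment. In other genes the differences were closer in size. STZ had log2 differences of 2.12 in Col-0 and 2.01 in 35S-GSH1, AT2G42560 had 1.98 and 1.83, GI had 1.43 and 1.22, PDC2 had 0.98 and 0.83, AT3G03270 had -2.34 and -2.40 and AT5G51440 had -2.85 and -2.36. The low oxygen list had 2 higher and 11 lower members in 35S-GSH1, with a median of -0.67, where 4.66% of all genes tested were called, 2.43% higher and 2.23% lower. The difference between the genotypes' temperature responses was tested as an interaction, and limma called 0 of 13648 probe sets. The smallest limma adjusted p was 0.9996. At an unadjusted limma p under 0.05 there were 453, a smaller share than the 0.05 that such a threshold passes where no probe set differs. The median half-width of the 95% interval was 0.52 log2 units for a Col-0 difference and 0.74 for the interaction, before any adjustment over probe sets. The adjusted test needs larger differences than that: an interaction of -2.28, that of AT2G38840, had a limma adjusted p of 1.0. The 0 calls therefore do not show that the genotypes responded alike.

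**Figure D5:**
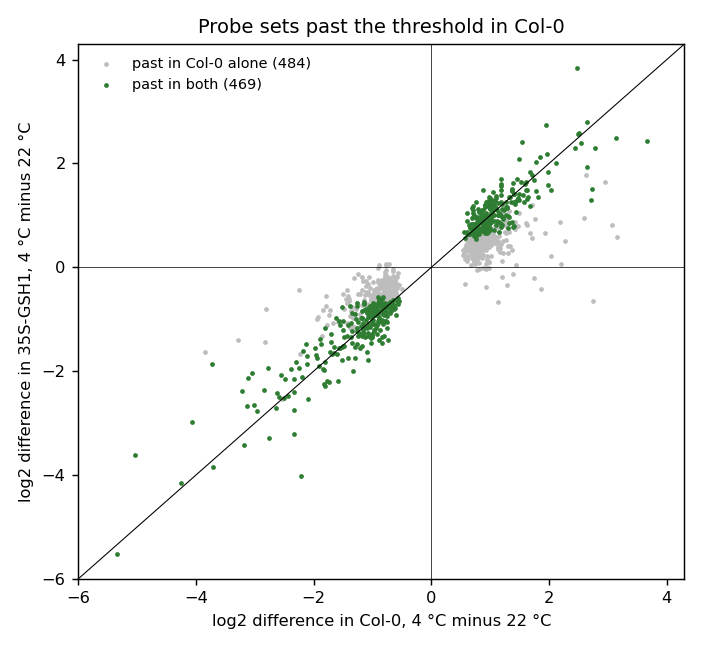
Log2 difference, 4 °C minus 22 °C, in 35S-GSH1 seeds (vertical axis) against that in Col-0 seeds (horizontal axis) for the 953 probe sets called in Col-0, with the line of equal differences. Green points are the 469 also called in 35S-GSH1 and grey points the rest; nearly all lie in the quadrants of equal sign.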

How the data were processed

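The deposited values are a linear intensity per probe set and array, which the authors made with GCOS, the array manufacturer's software, per the submitters' processing notes; its version and summary algorithm, and the target of its scaling, were not given in the sources used here. Total RNA was extracted from seeds with a CTAB-based method and labelled with biotin, per the labels' protocols. The trimmed mean of an array lay up to 9.71% from the median array, beyond the 5% set as tolerance, and quantile normalization was therefore applied to all 8, which would hide a shift of most transcripts. Values were analysed as log2(intensity + 1). Probe sets with a mean under the 40th percentile (2.86, an intensity of 6.26) were left out, which kept 13648 of 22746. limma 3.58.1 in R 4.3.3 fitted a coefficient per group to all 8 arrays, with 4 residual and 9.93 prior degrees of freedom, an intensity trend and two-sided tests. The procedure was tested on simulated data.

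Of the probe sets, 13513 had 1 gene, 503 several and 8730 none listed. Names came from RefSeq (TAIR10.1), matched for 13436 by gene ID. A gene was represented by its brightest probe set. Genes measured in several lists count in each. Named by rule were the 12 largest calls in each direction with both means above the filter level, the 5 largest with one mean below it, up to 6 members per list by adjusted p (or the smallest where none passed) and the largest unnamed probe set each way. HRA1, further low oxygen members, all called genes with a symbol and some uncalled list members were added after their values were seen. Members and lists were chosen with earlier results of these data known. Plastid and mitochondrial genes were taken by their chromosome in RefSeq. No sequence or coordinate is printed, and GSH1 itself was not analysed here. Alternatives were another pseudocount (16), the deposited scale, median centring, other filters, other moderation, the Col-0 arrays alone, the replicate number as a block and leaving out each array.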

Additional observations from a re-analysis of the deposited data

Results flagged for a closer look

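A pair of called genes separated in opposite directions in the 2 genotypes. AT2G38840 gave intensities of 3.63 and 4.46 at 22 °C and 16.5 and 17.9 at 4 °C in Col-0, and 15.6 and 13.2 at 22 °C and 11.5 and 9.56 at 4 °C in 35S-GSH1. The cold-minus-warm difference of 35S-GSH1 less that of Col-0 was -2.28 (SE 0.64, unadjusted p = 0.00323 from limma), and the limma adjusted p was 1.0. The defensin gene PDF1.4 gave 32 and 42.1 against 100.3 and 66.5 in Col-0, and 59.1 and 46.2 against 45.7 and 23.3 in 35S-GSH1. The difference between the genotypes was -1.79 (SE 0.44, unadjusted p = 0.00109 from limma), again with a limma adjusted p of 1.0. Neither difference passed the adjusted test. The Col-0 calls of these genes ended without some Col-0 arrays, with a limma adjusted p of 0.132 for AT2G38840 without Col-0 cold replicate 2 and of 0.280 for PDF1.4 without Col-0 cold replicate 1.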

How the results depend on the processing

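Leaving out 1 array in turn gave 430 to 843 Col-0 calls (953 with all arrays), 207 to 459 higher and 222 to 403 lower, 255 to 795 calls in 35S-GSH1, 8 to 13 lower low oxygen genes, 3 to 6 higher fast stress genes, 1 to 4 lower heat shock genes and 0 to 7 higher plastid-encoded genes; the lone array of a group was assumed to vary like the others. Without the intensity trend in the moderation there were 153 Col-0 calls (66 higher, 87 lower), 117 in 35S-GSH1, and 6 low oxygen, 3 fast stress, 1 heat shock and 0 plastid-encoded calls. Without the filter there were 317 higher calls, 2 heat shock and 3 plastid-encoded ones, with more probe sets to adjust over. At an adjusted p of 0.01 there were 345. The cause was not tested otherwise. With the replicate number as a block there were 1692 Col-0 calls (903 higher, 789 lower), 1386 in 35S-GSH1 and 12 plastid-encoded genes. The block ended none of the 105 named calls. The numbers were not taken as pairs: deviations of same-numbered arrays correlated with 0.051 to 0.143, and with 0.082 between the Col-0 groups. All of these lay above 0. On principal component 2, an axis holding 14.84% of the variance, replicate 1 lay above replicate 2 in every group. The values were 21.29 and -17.51 for Col-0 at 22 °C and 28.28 and -9.596 at 4 °C. For 35S-GSH1 they were 13.97 and -23.06 at 22 °C and 1.834 and -15.21 at 4 °C. Replicate 1 also had the higher median deposited intensity in every group. Whether the numbers mark batches was not tested. The interaction gave 0 calls in every setting run. Of the 105 named genes called in Col-0, 35 passed without any single array, 92 passed on the deposited scale, 82 with median centring, 68 without the filter, 28 without the trend, 79 with the Col-0 arrays alone and 104 with a pseudocount of 16, and none changed sign. No called gene could change sign without 1 array, since both arrays of one temperature lay beyond both of the other in every call. Dropping the filter, the trend or the 35S-GSH1 arrays leaves the difference unchanged, and another pseudocount keeps the order of the arrays. Among uncalled genes some signs turned when 1 array was left out. Log2 differences then ran from -0.30 to 0.070 for RPN12a, which had 0.00015 without cold replicate 2. They ran from -0.87 to 2.11 for IAA18, and from -0.073 to 0.20 for NAC014, which had -0.0060 without warm replicate 2. For CYP71B24 they ran from -2.48 to 0.15, and for LTI30, which had -0.094 without warm replicate 1, from -0.15 to 0.35. The files hold no detection calls, so signal over background was not analysed here.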
